A study of Arabidopsis thaliana with 12 samples.

Results

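The measurements described here are the salt response of Arabidopsis seedlings that overexpress PtSnRK2.7, a poplar protein kinase gene. They compare 3 arrays of overexpressor seedlings kept on salt with 3 arrays of mock-treated overexpressor seedlings, chosen by their labels, out of 12 arrays in all. In both groups, PtSnRK2.7 line 20 (genotype 35S:PtSnRK2.7:NOS, Columbia strain) was grown on half-strength MS medium under long days, moved at 7 days of age to plates with 200 mM NaCl (salt) or without it (mock), and sampled as whole seedlings at 9 days of age, after 2 days of treatment. The other 6 arrays, 3 salt and 3 mock, came from the wild-type of the same strain, handled in the same way. The transgene is driven by the constitutive CaMV 35S promoter, only 1 transgenic line was profiled, and the study used its T2 lines for salt treatment. A vector control is not among the arrays. The array carries Arabidopsis probes, so the poplar transcript itself was not measured and could not be used to check the labels.

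High salt reaches a plant as a shortage of water within minutes and as a load of Na+ and Cl- later on. Abscisic acid (ABA), the main hormone of water shortage, binds PYR/PYL receptors, which then hold back clade A PP2C phosphatases and so release SnRK2 kinases. Active SnRK2 kinases phosphorylate transcription factors and ion channels, and the transcripts that follow encode protective LEA proteins and dehydrins, enzymes for compatible sugars and transporters. PtSnRK2.7 belongs to this kinase family.

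Each value is a MAS5 signal, the brightness of a probe set, which is a group of short probes for one transcript, on a linear scale. The 6 overexpressor arrays had a common trimmed mean of 500.04 to 500.05, and their median signals were 169.4 to 176.5 in salt and 184.8 to 194.2 in mock seedlings. The median SD of log2 signals among replicates was 0.21 in overexpressor salt, 0.2 in overexpressor mock, 0.36 in wild-type salt and 0.2 in wild-type mock seedlings, and limma pooled these spreads. The ratio of 3′ to 5′ signal of the ubiquitin control, a measure of RNA integrity, was 1.41, 1.44 and 1.54 in salt and 2.24, 2 and 1.99 in mock seedlings, without overlap. The same ratio overlapped between treatments for GAPDH, at 1.21 to 1.43 in salt and 1.42 to 1.77 in mock seedlings, and did not for actin, at 5.66 to 6.15 in salt and 6.16 to 8.89 in mock seedlings. The part of these ratios in the salt response was not tested. Of 44 marker genes of leaf and root cell types 9 had a paired probe set, and none of them lay below the 20th percentile throughout a group. The summed signal of the leaf mesophyll markers CA1 and RCA was 11994 to 12711 in salt and 34633 to 51310 in mock seedlings, that of the endodermis markers CASP1 and ESB1 was 509.2 to 561.0 in salt and 1794 to 2501 in mock seedlings, and that of the root hair markers EXPA7 and EXPA18 overlapped, at 406.3 to 714.0 in salt and 443.0 to 612.6 in mock seedlings. The xylem marker XCP1 had 253.7 to 313.7 in salt and 837.6 to 989.2 in mock seedlings, and the stomatal markers FAMA and SPCH summed to 143.4 to 161.8 in salt and 192.0 to 218.5 in mock seedlings. At an adjusted p under 0.05, SPCH fell (log2 change -2.05) and FAMA did not pass (-0.23). The SPCH call was lost under several alternatives, with an adjusted p up to 0.17. CASP1, ESB1, XCP1 and CA1 had a probe set only through gene tables that the study had drawn from these same arrays. Their lower signals in salt are therefore no independent evidence. The part of these markers in the response was not tested. In whole seedlings, fewer cells of a type and less RNA per cell cannot be told apart.

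Of 22746 probe sets, 1111 (4.88%) were higher and 1218 (5.35%) were lower after salt in the overexpressor. Such calls needed an adjusted p under 0.01 together with a more than 3-fold change. On all of these, the 3 salt arrays and the 3 mock arrays did not overlap. Over all probe sets the 3 salt arrays lay above the 3 mock arrays for 23.3% and below them for 31.7%. The rises reached further than the falls. The median log2 change was 2.71 among the higher and -2.16 among the lower probe sets, 474 (42.7%) of the higher changed by more than 3 on the log2 scale against 237 (19.5%) of the lower, and 54 against 8 changed by more than 6. Low signals were frequent on one side of these calls: 162 of the higher probe sets lay under the array's 20th percentile on every mock array, and 144 of the lower did so on every salt array. At the milder threshold used for the gene lists, an adjusted p under 0.05, 3888 probe sets (17.1%) rose and 5463 (24.0%) fell, a split of 41.6% rising. This split depended on the scaling, since 51.9% of the calls were rises once every array was centred on its median, which moved the median log2 change of all probe sets to 0.05 from -0.09.

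**Figure D1:**
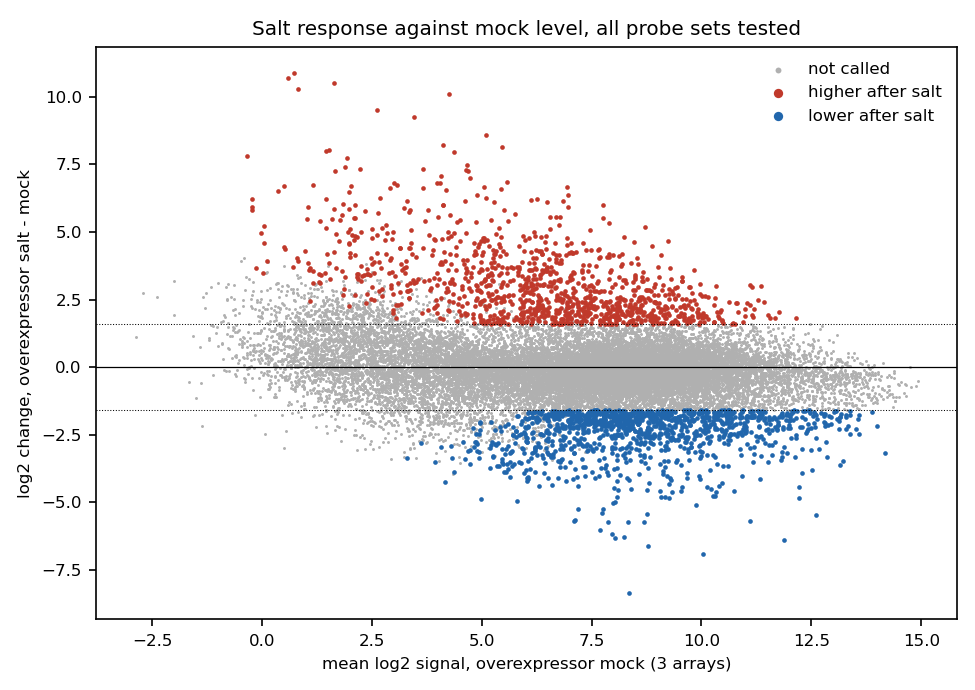
Log2 change of each of 22746 probe sets after salt in the overexpressor (y axis) against its mean log2 signal in mock overexpressor seedlings (x axis, 3 arrays). Red points are the 1111 higher and blue points the 1218 lower probe sets, dotted lines mark a 3-fold change, and the largest rises sit at the left, where mock signals were low.

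Among genes with a measurable signal on all 6 arrays, the greatest rise was that of NRT1.8, which takes nitrate back out of the xylem sap. It had signals of 12499, 11829 and 13732 in salt and 42.7, 43.9 and 46.1 in mock seedlings. It rose by 8.16 ± 0.47 on the log2 scale (SE, adjusted p = 1.4e-07), and the replicates of each treatment lay close together. COR15A, a cold- and drought-induced protein of the chloroplast stroma, had 13844, 12132 and 11121 in salt and 96.9, 196 and 96.3 in mock seedlings, a rise of 6.66 ± 0.69 (adjusted p = 1.3e-05). RD20, a caleosin of lipid droplets, had 7301, 7698 and 7981 in salt and 105, 151 and 122 in mock seedlings. Both genes were tightly grouped under salt and more scattered under mock treatment.

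The secreted lipid-transfer protein LTP3 was at 14263, 12383 and 14539.9 in salt and 256, 226 and 173 in mock seedlings, a log2 change of 5.99 ± 0.31. Its relative LTP2 had 18076, 15567 and 19855 in salt and 2326, 2207 and 2339 in mock seedlings, a log2 change of 2.95. The 3 lipid-transfer genes with a paired probe set rose, but all 3 were paired only through gene tables that the study had drawn from these same arrays, so this count is no independent evidence. LTP4 had 20948, 18681 and 23556 in salt and 28.8, 11.8 and 20.7 in mock seedlings, where 2 of the 3 mock signals lay under the array's 20th percentile. Single enzyme genes were also among the leading rises. UGT74E2, a glucosyltransferase acting on the auxin precursor indole-3-butyric acid, had 11041, 9544 and 10215 in salt and 111, 133 and 130.5 in mock seedlings. ChlAKR, an aldo-keto reductase of the chloroplast, had 5836, 5420.4 and 5812 in salt and 66.5, 88.7 and 76.4 in mock seedlings. The cytochrome P450 gene CYP81D8 (log2 change 6.14 ± 0.42) and the glutathione transferase gene GSTU4 (5.67 ± 0.4) rose as well. UGT74E2, ChlAKR, CYP81D8 and GSTU4 were all paired through the study's tables. Among probe sets paired through the array annotation, 4 rose and 5 fell of 11 named GSTU, and 4 rose and 5 fell of 26 named CYP. Over all 13512 probe sets paired that way, 15.0% rose and 21.8% fell. RAP2.6, an ERF transcription factor induced by ABA, had 4910.4, 3765 and 4754 in salt and 82, 102 and 98 in mock seedlings (5.57 ± 0.4).

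**Figure D2:**
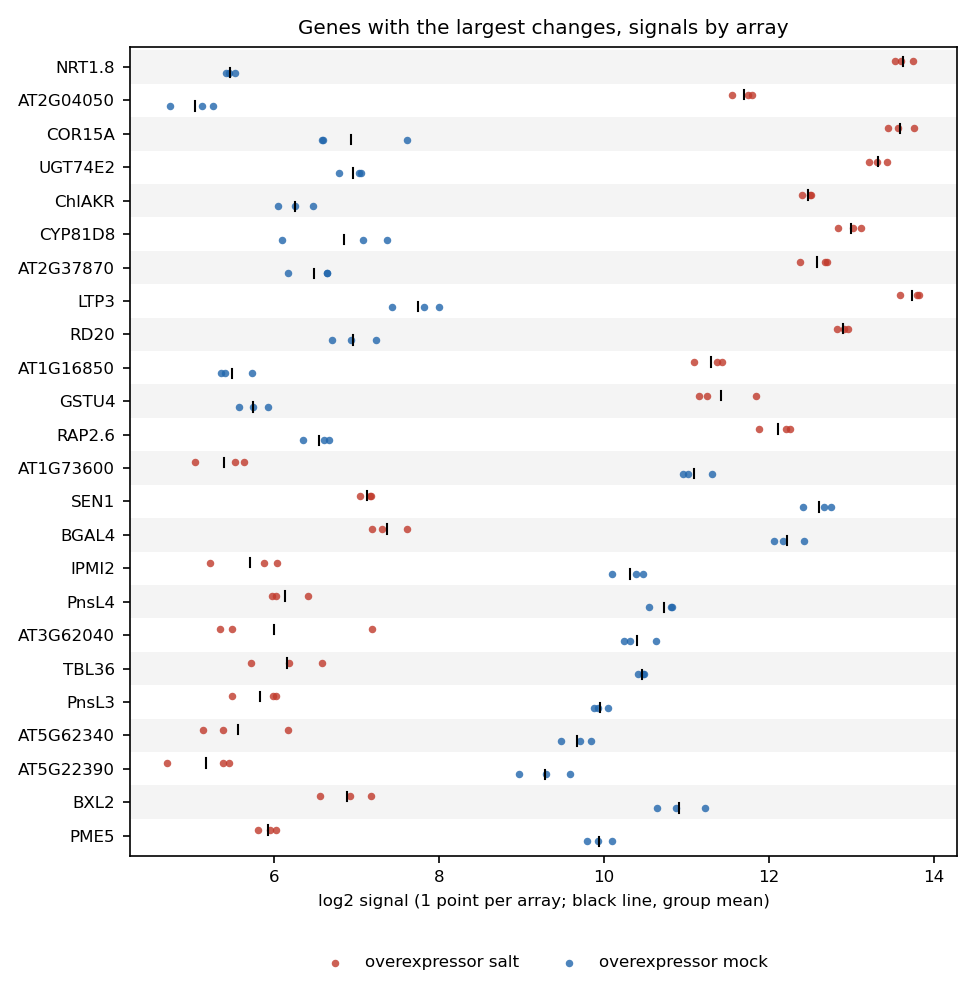
Log2 signals of the 12 genes with the greatest rises and the 12 with the greatest falls after salt among genes with signals above the 20th percentile on all 6 arrays. Each point is 1 array, red for overexpressor salt and blue for overexpressor mock, and black lines are group means. Salt and mock points are separate for all 24 genes because the rule that chose them required it. CYP81D8, COR15A and AT3G62040 show the widest replicate spread.

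Other genes were at background in mock seedlings, so that only a lower limit of their rise could be given, set against the 20th percentile of the mock arrays. UGT76E12, a glycosyltransferase gene, had 3146, 2789.8 and 3536 in salt and 1.71, 2.37 and 1.13 in mock seedlings, at least 132-fold higher (adjusted p = 1.0e-06). UGT73C1, a glycosyltransferase gene of another subfamily, had 904, 681 and 701 in salt and 4.14, 1.73 and 3.27 in mock seedlings, at least 31.8-fold higher. JRG21, a jasmonate-regulated oxygenase gene, was at least 189-fold higher, with 4304, 4012 and 5258 in salt and 1.86, 6.27 and 19.4 in mock seedlings. The remaining 3 genes of this kind were BSMT1, which methylates benzoic and salicylic acid, MYB15, a stress transcription factor, and AT1G57630, at least 92.6, 35 and 37.8 times higher. Over these 6 genes the highest mock signal was 22 (AT1G57630) and the lowest salt signal 622 (MYB15).

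Gene lists for salt, ABA, growth and photosynthesis were followed with the milder threshold. Of 161 genes of these lists with a probe set, 98 rose, 54 fell and 9 did not pass. These shares are inflated, because 103 of the 161 could be matched to a probe set only through gene tables that the study had drawn from these same arrays, and all 103 passed. Among the 58 genes paired through the array annotation, 21 (36.2%) rose and 28 (48.3%) fell, beside 15.0% and 21.8% of all 13512 probe sets paired that way. Past the stricter threshold of more than 3-fold, 12 of the 58 were higher and 10 lower, beside 3.77% and 5.05% of those probe sets. The lists and their members were chosen with earlier results of these data known. The shares among the 58 are therefore a description and no independent evidence either. Counts below name the tables' share where it matters.

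Stress proteins: the list of genes that respond to ABA and dehydration had 13 measured members, of which 12 rose and none fell (4 of 5 paired through the annotation rose). LEA4-5, a late embryogenesis abundant protein, had 737, 523 and 869.9 in salt and 5.93, 9.22 and 17.8 in mock seedlings, at least 29.3-fold higher (adjusted p = 1.9e-04). RAB18, an ABA-induced dehydrin, had 2744, 2009 and 1737 in salt and 78.1, 73.3 and 70.3 in mock seedlings, a log2 change of 4.85 ± 0.63. RD29A, a hydrophilic desiccation protein widely used as a marker of the ABA response, had 4440.4, 4524 and 4340.0 in salt and 207, 345 and 225 in mock seedlings (4.14 ± 0.59). The dehydrins differed in size of change. ERD10 had 11931, 10841 and 11617 in salt and 2858, 3926 and 3124 in mock seedlings and LTI30 rose by 1.92 ± 0.37, whereas COR47 did not pass, with 5938, 5767 and 5449 in salt and 4281, 5498 and 4800.3 in mock seedlings and a log2 change of 0.24 ± 0.21 (adjusted p = 0.41). LEA14, ERD7, the chloroplast protease gene ERD1 and the chloroplast envelope gene COR413IM1 changed by 1.68 to 1.95. The chaperone genes HSP90.1 (2.73 ± 0.29) and HSP70 (2.13 ± 0.37) rose as well.

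ABA pathway: most of the core components had no paired probe set, and those measured did not share a direction. PYL6, an ABA receptor, had 89, 49.9 and 72.1 in salt and 322, 261 and 274 in mock seedlings and fell by 2.06 ± 0.31 on the log2 scale. SNRK2.8, a seedling's own kinase of the family to which the transgene belongs, fell by 1.83 ± 0.27, with 126, 89.2 and 90.8 in salt and 316, 389.6 and 372 in mock seedlings. In contrast, HAI2, a clade A PP2C that acts against the pathway, rose by 3.15 ± 0.62. CYP707A1, which hydroxylates ABA and so starts its breakdown, had 1179.7, 1074 and 1278 in salt and 126, 108 and 70.7 in mock seedlings (log2 change 3.57 ± 0.29), and BG1, which frees ABA from its glucose ester, had 15331, 14673 and 18523 in salt and 5026, 4388 and 4204 in mock seedlings (1.83 ± 0.17). All of these genes were paired through the study's tables, so no pattern by role is read from them.

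The 9 ABA-linked transcription factor genes that were measured all rose, again all paired through the tables, with a median log2 change of 2.49. DREB2A and DREB2B, AP2 factors that bind the dehydration-responsive element, had 959, 856 and 1259.5 and 588, 415 and 401 in salt and 99.8, 102 and 134 and 44.7, 55.5 and 51.5 in mock seedlings. The NAC factor gene RD26 had 5032, 3614 and 5768 in salt and 914, 787 and 876 in mock seedlings. The R2R3-MYB genes MYB74 (3.05 ± 0.57) and MYB102 (2.99 ± 0.78) changed more than MYB44 (1.9 ± 0.24), though the difference between these genes was not tested. Of 10 WRKY factor genes 8 rose, but 7 of the 10 were paired through the tables, and of the 3 paired through the annotation 1 rose and 2 did not pass. WRKY75 had 1271, 1017 and 1422 in salt and 48.9, 58.4 and 83.9 in mock seedlings, while WRKY22 (-0.02 ± 0.35) and WRKY53 (-0.04 ± 0.56) did not pass. WRKY53 was uneven under mock treatment, with 211, 163 and 219 in salt and 61.4, 330.5 and 406 in mock seedlings, and without overexpressor mock replicate 1, the lowest mock value, its log2 change became -0.9 and passed (adjusted p = 0.046).

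Ethylene and jasmonate: ACS2, which makes the ethylene precursor ACC, had 2896, 2422 and 2643 in salt and 20.2, 52.7 and 38.5 in mock seedlings, a log2 change of 6.26 ± 0.43. Its relative ACS6 rose by 2.4 ± 0.45. The ethylene response factor gene ERF1 had 854, 305 and 745 in salt and 45.6, 44 and 28.7 in mock seedlings, with replicate 2 the lowest salt value, while EIN3, the regulator above it, changed by only 0.47 ± 0.1. PDF1.2, a defensin gene under joint ethylene and jasmonate control, went the other way, with 65.5, 162 and 93.8 in salt and 198, 425 and 364 in mock seedlings (-1.65 ± 0.62, adjusted p = 0.049), a call that was lost under several alternatives and whose adjusted p was then 0.16 at most. All 18 measured jasmonate genes rose, all of them paired through the tables, with a median log2 change of 3.56. They ran from synthesis to breakdown: LOX4, a lipoxygenase, changed by 3.87 ± 0.45, the repressor genes JAZ5 and JAZ8 by 4.85 ± 0.31 and 6.15 ± 0.38, and CYP94B3 and CYP94C1, which oxidise the active conjugate, by 4.31 ± 0.6 and 3.6 ± 0.3. JAZ8 had 1961, 1273 and 2125 in salt and 16.9, 33.2 and 26.7 in mock seedlings, and among the JAZ genes JAZ3 changed least, with 1529.9, 1291 and 1770.1 in salt and 601, 617 and 550.0 in mock seedlings. GH3.3, which conjugates auxin to amino acids, rose by 3.75 ± 0.48 and the auxin influx carrier gene AUX1 fell by 1.6 ± 0.26.

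**Figure D3:**
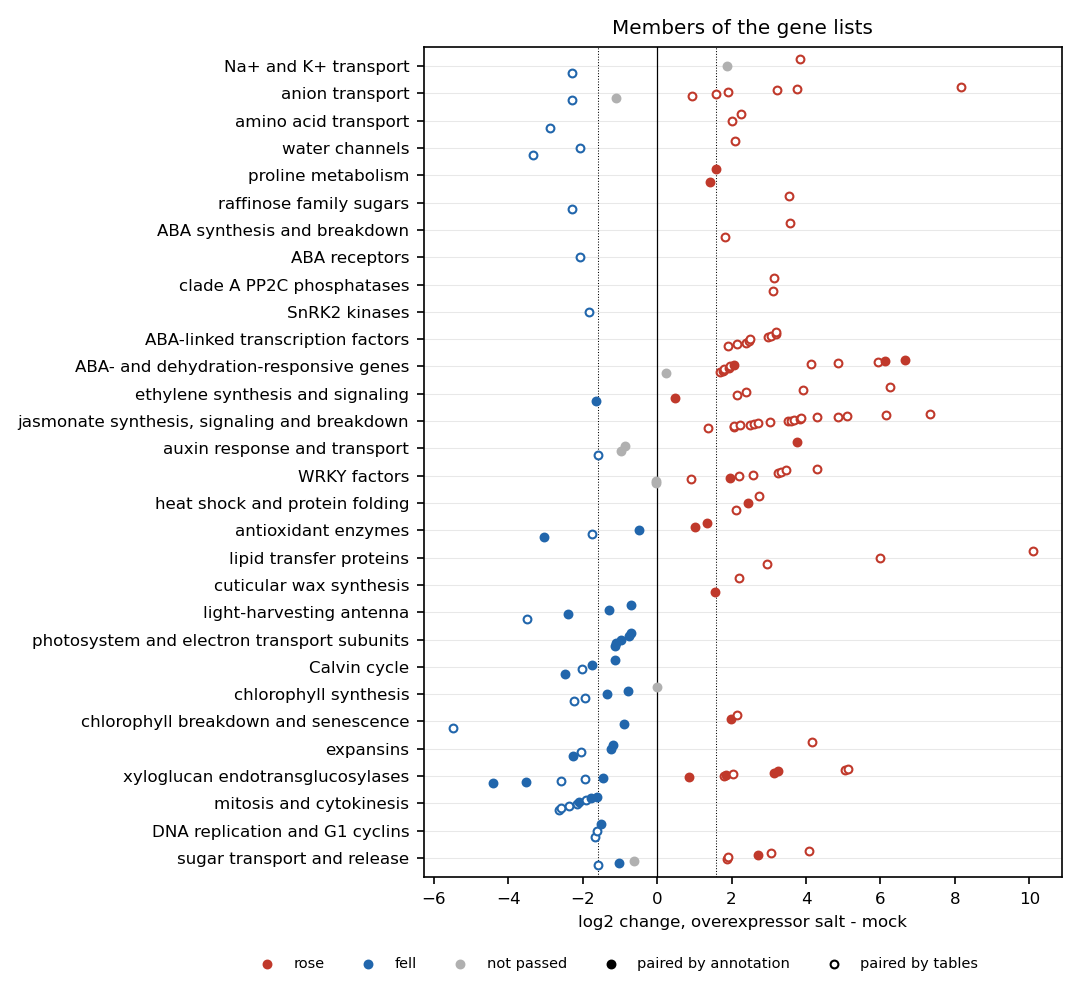
Log2 change after salt in the overexpressor (x axis) of the measured members of each gene list (rows). Red points rose, blue points fell and grey points did not pass at an adjusted p of 0.05, filled points were paired through the array annotation and open points through the study's tables, and dotted lines mark a 3-fold change; the lists of photosynthesis and cell division lie to the left of 0 and those of stress proteins, WRKY factors and jasmonate mainly to the right.

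Nitrate and anion transport: NRT1.8 and NRT1.5 act in opposite directions on nitrate in the xylem, and their transcripts moved apart. NRT1.5, which loads nitrate into the root xylem, had 385, 446 and 379.8 in salt and 2387, 1785 and 1803 in mock seedlings and fell by 2.29 ± 0.2 on the log2 scale (adjusted p = 3.1e-06), beside the rise of NRT1.8. NRT1.7, which exports nitrate from old leaves through the phloem, had 4298, 4286 and 2898 in salt and 313, 471 and 460.4 in mock seedlings. SLAH3, a nitrate-permeable anion channel of guard cells that calcium-dependent kinases activate, had 4088, 3929 and 3598 in salt and 222, 355 and 303 in mock seedlings (3.75 ± 0.32). Of the 8 measured anion transport genes 6 rose, 1 fell and NRT2.5 did not pass (-1.1 ± 0.47). All 7 that passed were paired through the study's tables, and NRT2.5 was the only 1 paired through the annotation.

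Cations, water and organic solutes: CAX3, a vacuolar calcium-proton exchanger, had 5059, 4309.6 and 5163 in salt and 325, 360.1 and 320.2 in mock seedlings (3.85 ± 0.21). KEA1, a potassium-proton antiporter of the chloroplast envelope, had 269, 256 and 249 in salt and 1291, 1259.5 and 1233 in mock seedlings (-2.29 ± 0.18). Only 3 of 30 listed Na+ and K+ transport genes had a paired probe set, so the main Na+ carriers were not described here. The vacuolar aquaporin gene TIP2;2 had 354, 424 and 321 in salt and 3894, 3709.7 and 3388 in mock seedlings and the plasma membrane aquaporin gene PIP2;4 fell by 2.06 ± 0.21, whereas SIP1;2, an aquaporin of the endoplasmic reticulum, rose by 2.1 ± 0.19. The 3 measured water channels thus did not share a direction. They and the 3 amino acid transport genes measured were all paired through the tables. Among amino acid permeases, AAP2 had 373, 398 and 436 in salt and 3375, 2714 and 2842 in mock seedlings, and AAP1 (2.01 ± 0.16) and LHT1 (2.25 ± 0.27) rose. STP13, a hexose-proton symporter, had 4474, 3926 and 3717 in salt and 138, 372 and 264 in mock seedlings, while its relative STP1 fell by 1.58 ± 0.24 and had 1306, 1235 and 788 in salt and 2976, 3028 and 3736 in mock seedlings.

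**Figure D4:**
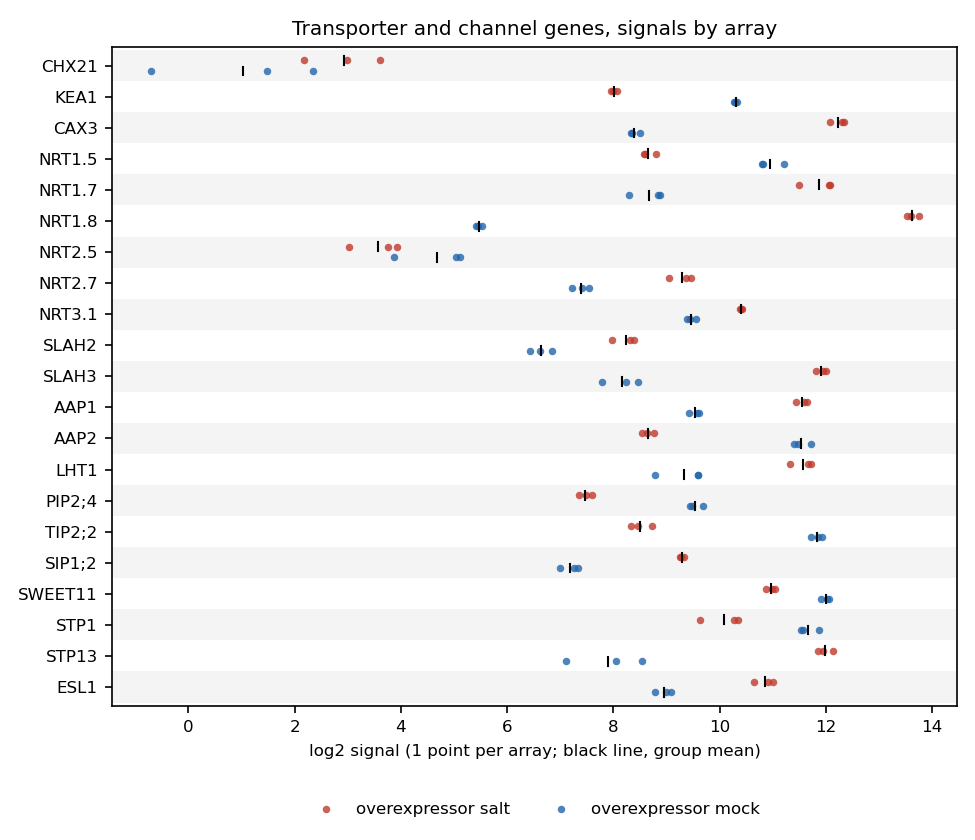
Log2 signals of 21 transporter and channel genes in the overexpressor, 1 point per array, red for salt and blue for mock, with black lines at the group means. NRT1.8 and NRT1.5, AAP1 and AAP2, and STP13 and STP1 moved in opposite directions, and the points of CHX21 and NRT2.5, which did not pass the test, lie at the low end of the axis.

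Carbon and osmolytes: RS6, named for raffinose synthesis, fell by 2.28 ± 0.28, with 2520.5, 3315 and 1699 in salt and 13597, 10308 and 11497 in mock seedlings, while GOLS1, which makes the galactinol used in that synthesis, had 2028, 2083 and 1876 in salt and 183, 164 and 165 in mock seedlings. BAM1 and AMY1, starch-degrading amylase genes, rose by 1.88 ± 0.28 and 2.7 ± 0.36. Both measured proline genes rose: OAT, ornithine aminotransferase, by 1.58 ± 0.22 and PRODH2, which oxidises proline, by 1.43 ± 0.34.

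The greatest falls among genes with a signal on all 6 arrays included cell wall enzymes and the plastid NDH complex. SEN1, a senescence- and dark-associated gene, had 132, 143 and 146 in salt and 6905, 5480.2 and 6543 in mock seedlings, a log2 change of -5.49 ± 0.37 (adjusted p = 5.4e-07). PnsL4 and PnsL3, lumenal subunits of the NDH complex that carries electrons around photosystem I, had 63.2, 85.2 and 65.4 and 45, 65.3 and 63.8 in salt and 1808, 1493 and 1814 and 1063, 945 and 976 in mock seedlings. The cell wall enzyme genes BGAL4 (a beta-galactosidase), BXL2 (a beta-xylosidase) and PME5 (a pectin methylesterase) changed by -4.84 ± 0.26, -4.03 ± 0.24 and -4.02 ± 0.36. PME5 had 56, 65.2 and 61.9 in salt and 1102, 976 and 889.7 in mock seedlings, a narrow spread in both. IPMI2, a small subunit of isopropylmalate isomerase, had 37.3, 58.9 and 65.8 in salt and 1428, 1345 and 1096 in mock seedlings. SEN1, PnsL4, PnsL3, BGAL4, BXL2, PME5 and IPMI2 were all paired only through gene tables that the study had drawn from these same arrays. No pattern by role is therefore read from them. AT1G73600, the gene with the greatest fall of this kind, had 32.9, 49.9 and 46.1 in salt and 2535, 2080.3 and 2000.2 in mock seedlings. Genes that dropped to background could be given only a limit: AT3G01260 was at least 18.4-fold lower, with 14.7, 19.6 and 22.7 in salt and 557, 320.1 and 448 in mock seedlings, and AT5G26200, AT3G62950, AT1G13650, AT1G52820 and AT4G22460 were at least 11.2 to 17.7 times lower.

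Photosynthesis: transcripts of the antenna, the photosystems, the Calvin cycle and chlorophyll synthesis fell in 17 of 18 measured nuclear genes of these 4 lists, and 14 of the 18 were paired through the annotation, 13 of which fell. The falls differed widely within the antenna. LHCB2.3 had 734, 876 and 949.8 in salt and 10247, 7703 and 10874 in mock seedlings (-3.49 ± 0.51) and LHCB4.3 had 414, 359.5 and 394 in salt and 2260.2, 2234 and 1712 in mock seedlings, whereas LHCB4.1 fell by 0.7 ± 0.21 and had 10212, 10063 and 10059.6 in salt and 18169, 16343 and 15038 in mock seedlings. Photosystem and ATP synthase subunits (PSAE-1, PSAN, PSBW, PSBY and ATPC1) fell by less, 0.69 to 1.13 on the log2 scale, and none reached a 3-fold change. In the Calvin cycle SBPASE, which regenerates the CO2 acceptor, had 1763, 1946 and 2108 in salt and 11662, 10998 and 9632 in mock seedlings (-2.47 ± 0.4), PRK fell by 1.76 ± 0.4, and RCA, the activase of Rubisco, fell by 1.12 ± 0.31. Chlorophyll synthesis was uneven, since GSA2, for an early step, had 1018, 1156 and 1040.3 in salt and 5639, 4623 and 4772 in mock seedlings while PORB, for a late step, had 3062, 3244 and 3271 in salt and 3235, 2985 and 3431 in mock seedlings and did not pass (-0.01 ± 0.18, adjusted p = 0.98). The calls of PSAE-1, PSBW and LHCB4.1 were lost under quantile normalization and without 1 or more single arrays, overexpressor mock replicate 1 among them for each (adjusted p up to 0.15, 0.1 and 0.066), and those of LHCB4.2 and RCA were lost without overexpressor mock replicate 1, at adjusted p of 0.052 and 0.051.

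Plastid-encoded transcripts shared the direction. Of 69 probe sets for genes of the plastid genome 56 fell, 1 rose and 12 did not pass. Their median log2 change was -1.12, beside -0.08 over all probe sets paired through the annotation. Over all probe sets so paired, 21.8% fell, 15.0% rose and 5.05% were lower by more than 3-fold. Genes for the plastid's own ribosome and RNA polymerase, such as rpl36 (-2.52 ± 0.32), rps2 (-2.29 ± 0.37) and rpoC2 (-1.93 ± 0.29), lay among the 20 that were lower by more than 3-fold. The photosynthesis genes rbcL (-0.86 ± 0.22) and psbA (-0.7 ± 0.16) fell by less. The cytochrome complex gene petG was the single rise, with 278, 324 and 432 in salt and 107, 67.9 and 186 in mock seedlings (1.61 ± 0.56), and its call was lost without any 1 of 5 overexpressor arrays (mock replicates 1 and 2 and all salt replicates, adjusted p up to 0.13). Some falls also lost their call under at least 1 alternative, among them ndhE, ndhG, ndhC, psbM, atpE, psbJ and psbK. Under quantile normalization psbM changed by -0.33 (adjusted p = 0.29).

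Antioxidant enzymes did not move as a group. TAPX, the thylakoid ascorbate peroxidase, had 225, 265 and 199 in salt and 2146, 1672 and 1811 in mock seedlings (-3.03 ± 0.27), while SAPX, the stromal and mitochondrial enzyme of the same family, had 3700.0, 3529 and 4094 in salt and 1569, 2163 and 1861 in mock seedlings (1.03 ± 0.2). The cytosolic glutathione reductase gene GR1 rose by 1.35 ± 0.15, and the organellar GR2 fell by 0.49 ± 0.14, a call lost without overexpressor mock replicate 2 and without overexpressor salt replicate 3, with an adjusted p of 0.057 at most. CSD2, the chloroplast superoxide dismutase, fell by 1.75 ± 0.16.

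Cell division: all 8 measured genes of mitosis and cytokinesis fell by more than 3-fold, 3 of them paired through the annotation. KNOLLE, the syntaxin of the cell plate, had 169.7, 213 and 164 in salt and 1261, 1097 and 1012 in mock seedlings (-2.63 ± 0.31). The mitotic cyclin gene CYCB2;4 had 33.2, 34 and 37.3 in salt and 219.6, 198 and 206 in mock seedlings (-2.58 ± 0.43), and AUR1, an Aurora kinase gene paired through the annotation, had 158, 179 and 147 in salt and 540.1, 627 and 499 in mock seedlings (-1.78 ± 0.22). The replication genes PCNA1, PCNA2 and MCM7 fell by 1.68, 1.62 and 1.51 on the log2 scale.

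Cell wall expansion was mixed. Of the 10 EXPA expansin genes paired through the annotation 3 fell (EXPA4, EXPA8 and EXPA15), none rose and 7 did not pass, with a median log2 change of -0.29. EXPA8 had 87.6, 87.9 and 100.2 in salt and 336, 442 and 572 in mock seedlings. Among those paired through the tables EXPA6 fell by 2.05 ± 0.23, whereas EXPA10 had 9959.9, 8234 and 10903 in salt and 529.6, 479 and 621 in mock seedlings and rose by 4.16 ± 0.18. Of 13 genes for xyloglucan endotransglucosylases, which cut and rejoin wall polymers, 8 rose and 5 fell, and 6 of the 13 were paired through the tables. XTH25 and XTH23 changed most upward, at 5.14 ± 0.34 and 5.06 ± 0.4, and XTH31 fell by 2.59 ± 0.35. XTH16, XTH18, XTH19 and XTH33 rose and XTH20, XTH21 and XTH26 fell among those of the list paired through the annotation. Over all 9 probe sets named XTH and paired that way, 6 rose and 3 fell, beside 15.0% and 21.8% of all probe sets so paired. XTH33 had 968, 604 and 562 in salt and 73.4, 67.3 and 75.4 in mock seedlings, and XTH26 had 7.79, 3.04 and 3.58 in salt and 34.3, 74.5 and 48.5 in mock seedlings. XTH26 and XTH21 were at background in salt, so their falls have only limits, at least 2.13-fold and 3.36-fold.

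Gene families named by a shared symbol and paired through the annotation, 29 families with at least 8 probe sets, gave counts free of the study's tables; those described were chosen after their values had been seen. Of all probe sets paired that way 15.0% rose and 21.8% fell, and past the stricter threshold 3.77% were higher and 5.05% lower. Beta-glucosidase genes (BGLU) included 8 rises and 1 fall among 20, with 6 past 3-fold. BGLU27 had 340.4, 141 and 248 in salt and 2.07, 12 and 2.47 in mock seedlings and BGLU28 had 4278, 5683 and 4674 in salt and 96.5, 103 and 112 in mock seedlings. The 47 glycosyltransferase genes (UGT) were divided, with 17 rises and 14 falls, from -4.19 ± 0.64 for UGT84A1, a phenylpropanoid-glucosylating enzyme, to rises of 4.43 ± 0.66 for UGT73C7 and the 2 genes from background named above. Of 14 sugar efflux transporter genes (SWEET) 3 rose and 4 fell, shares near those of all paired probe sets at the milder threshold. Past the stricter threshold 3 of the 14 were higher and 0 lower, a larger share of higher genes than over all paired probe sets. The rises were SWEET4 (2.78 ± 0.42), SWEET8 (2.22 ± 0.55) and SWEET13 (1.89 ± 0.18). SWEET11 was among the falls, with 2017, 1883 and 2110.2 in salt and 3825, 4179.9 and 4278 in mock seedlings. Among 22 TBL genes, a family linked to acetylation of wall polymers, 4 rose and 7 fell, again near the shares of all paired probe sets. Past the stricter threshold 2 of the 22 were higher and 4 lower, larger shares than over all paired probe sets. TBL26 changed by 3.38 ± 0.26 and TBL36 by -4.29 ± 0.54.

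The response was then set against that of the wild-type on its own 6 arrays. Of the 1111 higher probe sets 1102 also had a wild-type change above 0, and of the 1218 lower probe sets 1207 had one below 0. Since these probe sets were chosen for their change in the overexpressor, their median log2 changes are given as a description. They were 2.71 in the overexpressor and 2.38 in the wild-type for the higher, and -2.16 and -1.72 for the lower. The wild-type salt arrays were uneven. Estimated quality weights, lower for arrays that depart more from the fit, were 0.37, 0.23 and 2.45 for their replicates 1 to 3. The 6 overexpressor arrays had weights of 0.82 to 1.66. The part of this unevenness in the wild-type medians was not tested. The difference in response was tested for each probe set as the interaction of genotype and salt. At an adjusted p under 0.05 the overexpressor's response was more positive for 56 of 22746 probe sets (0.246%) and more negative for 12 (0.0528%). Of these, 30 lay among the higher and 6 among the lower probe sets. All 36 changed more in the overexpressor, a direction that choosing probe sets by their overexpressor change favours and from which nothing is read. These counts rested on single arrays. Leaving out any 1 of the 12 arrays moved the first by more than 1.5 times, to 209 and 466 without wild-type salt replicates 1 and 2 and to between 4 and 31 without any other array. The second became 114 and 294 without those replicates and 1 to 8 otherwise.

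GSTF12, a glutathione transferase needed to store anthocyanin, had 3204, 2378 and 3145 in salt and 379.6, 275 and 280.0 in mock overexpressor seedlings, beside 2221, 1349.8 and 1403 in salt and 909, 1045 and 1484 in mock wild-type seedlings. The interaction was 2.7 ± 0.32 (SE, adjusted p = 0.0073), and the overexpressor lay above the wild-type in salt and, by a wider margin, below it in mock seedlings. PS2, a phosphatase gene of phosphate starvation, had 1280.4, 1404 and 1986 in salt and 104, 61 and 89.2 in mock overexpressor seedlings, beside 2034, 1820.1 and 2153 in salt and 522, 557 and 627 in mock wild-type seedlings (interaction 2.39 ± 0.28, adjusted p = 0.0073). The genotypes overlapped in salt for PS2, and the overexpressor was lower in mock seedlings. Both calls were lost without the intensity trend in the fit (adjusted p = 0.092 each). In the opposite direction, RALFL27, a gene of the RALF signaling peptide family, was at background in salt-treated overexpressor seedlings, with 3.23, 3.12 and 4.29 in salt and 264, 266 and 223 in mock overexpressor seedlings, beside 34.8, 78.7 and 58.5 in salt and 162, 202 and 185 in mock wild-type seedlings (interaction -4.41 ± 0.45, adjusted p = 0.0036). The size of this interaction rests on background signals, and with all signals floored at the array's 20th percentile it was -1.67 and no longer passed (adjusted p = 0.076).

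Only 2 members of the gene lists passed the interaction test. COR15B, the close relative of COR15A, had 817, 626 and 641 in salt and 139, 210.3 and 148 in mock overexpressor seedlings, beside 364, 306 and 307 in salt and 229, 329 and 252 in mock wild-type seedlings (interaction 1.8 ± 0.27, adjusted p = 0.025). LOX2, a chloroplast lipoxygenase of jasmonate synthesis, had 19395, 15880.0 and 19286 in salt and 2027, 2694 and 1938 in mock overexpressor seedlings, beside 16819, 19722 and 22002 in salt and 5377, 6519 and 6967 in mock wild-type seedlings (interaction 1.41 ± 0.24, adjusted p = 0.037). In mock seedlings the overexpressor was below the wild-type for both genes, and in salt it was above the wild-type for COR15B and overlapped it for LOX2. Neither call was stable. Both were lost without the intensity trend (adjusted p = 0.1 for COR15B and 0.11 for LOX2), with the replicate number as a block (0.05 and 0.068), and without any 1 of 7 arrays: wild-type mock replicates 2 and 3, wild-type salt replicate 3, overexpressor mock replicate 3 and each overexpressor salt replicate (up to 0.091 and 0.12). That of LOX2 was also lost without overexpressor mock replicate 1 (0.064). COR15A had a wider gap, with 5000.4, 405 and 1019 in salt and 106, 222 and 329 in mock wild-type seedlings and an interaction of 3.97 ± 0.98, but did not pass (adjusted p = 0.11). Its wild-type salt signals were scattered, with replicate 1 far above the others.

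The 4 genes that the study had picked for quantitative RT-PCR and that had a paired probe set all rose in the overexpressor. AT4G33550 had 4054, 5085 and 4106 in salt and 256, 233 and 229.9 in mock overexpressor seedlings and AT4G18280 had 3492, 2786 and 2633 in salt and 249, 257 and 228 in mock overexpressor seedlings, with log2 changes of 4.2 ± 0.51 and 3.59 ± 0.43 there and 1.72 and 1.11 in the wild-type. In the wild-type AT4G33550 had 3243, 429.8 and 1408 in salt and 350.3, 511 and 308 in mock seedlings, and AT4G18280 had 1584, 269 and 578 in salt and 279, 304 and 292 in mock seedlings. Replicate 2 of wild-type salt lay within the range of the mock arrays for AT4G33550 and below it for AT4G18280, well under the other salt replicates of both genes. CWINV5, a cell wall invertase gene, changed by 3.06 ± 0.57 in the overexpressor and 2.77 in the wild-type. None of the 4 passed the interaction test, with adjusted p of 0.17, 0.11, 0.93 and, for COR15A, 0.11, and these genes had been selected on the same arrays. The study's quantitative RT-PCR is separate evidence that is not part of these arrays. There the paper reports stronger salt induction of its chosen genes in PtSnRK2.7 overexpressors than in the wild-type and vector control. It also reports that AT4G18280 was not induced in either control.

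**Figure D5:**
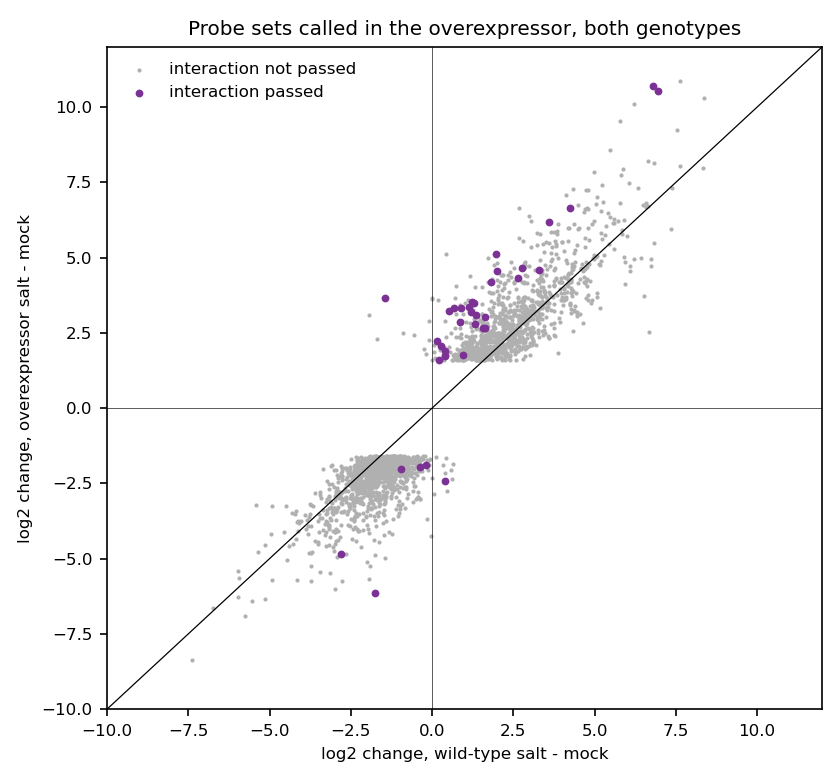
Log2 change after salt in the overexpressor (y axis) against that in the wild-type (x axis) for the 2329 probe sets called in the overexpressor. Purple points are the 36 probe sets that passed the interaction test, and the diagonal marks equal changes. All 36 lie farther from 0 in the overexpressor, which the choice of probe sets by their overexpressor change favours.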

How the data were processed

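Total RNA of whole Arabidopsis seedlings was hybridised to Affymetrix ATH1 GeneChips, with 3 biological replicates in each of 4 groups. The authors deposited MAS5 intensity signals, linear and brought to a common trimmed mean, 1 per probe set and array, and the genome build behind them is not given in the sources used here. MAS5 subtracts mismatch from perfect-match probes, so low signals are noisy and have no reliable order.

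From these signals, log2 values of 22746 probe sets (64 Affymetrix controls left out) were fitted with limma 3.58.1 (R 4.3.3) as 4 group means over all 12 arrays, with moderated variances following an intensity trend, two-sided tests and Benjamini-Hochberg adjustment over all probe sets. Calls were an adjusted p under 0.01 with a fold change above 3, list members rose or fell at an adjusted p under 0.05, and the interaction was the overexpressor's salt change minus that of the wild-type, at an adjusted p under 0.05. The fit was tested on simulated data. The adjusted p measure the spread between the biological replicates that the study names, and the number of arrays limits precision.

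A probe set was named where the array annotation (13512) or, failing that, the study's gene tables (698) paired it with 1 gene; 555 had several genes, 7980 had none and 1 had conflicting names. Symbols were updated through RefSeq (TAIR10.1). Those tables were used for names only. For a gene with several probe sets, list members take the one with the highest mean signal. A signal under the array's 20th percentile on all 3 arrays of a group counted as background and gave only a limit of the fold change.

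The members and the 32 gene lists were chosen with earlier results of these data known. Named genes included the 12 most positive and 12 most negative called changes with signal on both sides and no overlap of salt and mock arrays. Further named genes were 6 per direction from or to background, and up to 5 per list with the largest change. Members against their list's majority and the genes of the study's RT-PCR with RD29A were added. The 8 most positive and most negative interactions among called probe sets completed the set. Only some are printed, together with some other list members, and family members were chosen after their values were seen. Of the 7 marker lists, those for root apical meristem and seed storage had no paired probe set. As alternatives, arrays were quantile-normalized or median-centred, signals were floored at the 20th percentile or filtered above the 40th, and further fits used no intensity trend, array weights, a replicate block, only the 6 overexpressor arrays or all but 1 array; the methods' t-test and other thresholds were also run.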

Additional observations from a re-analysis of the deposited data

Results flagged for a closer look

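Between the genotypes, 15 genes named by rule or belonging to a gene list differed in their salt response by the interaction test, given as the log2 change in the overexpressor minus that in the wild-type. The difference was positive for AT2G20470 (5.13), AT1G13470 (3.16), GSTF12 (2.7), AT4G17470 (2.56), AT4G14090 (2.42), AT2G04050 (2.41), PS2 (2.39), UF3GT (2.3), COR15B (1.8) and LOX2 (1.41). It was negative for AKINBETA1 (-1.07), CDEF1 (-1.59), EXT3 (-1.72), BGAL4 (-2.04) and RALFL27 (-4.41). For AT2G20470, AT1G13470 and RALFL27 a group was at background, so the sizes are not measurable there, and with signals floored at the 20th percentile they were 0.94, 0.07 and -1.67 and did not pass (adjusted p = 0.25, 0.99 and 0.076). AT1G13470 had 80.5, 103 and 108 in salt and 2.18, 3.27 and 2.9 in mock overexpressor seedlings, and 128, 237 and 164 in salt and 59.3, 57.6 and 23.7 in mock wild-type seedlings. AT2G20470 had 62.1, 35.3 and 32.1 in salt and 5.09, 3.17 and 2.11 in mock overexpressor seedlings, signals near background, and 4.73, 5.66 and 5.13 in salt and 5.93, 31.1 and 15.3 in mock wild-type seedlings. UF3GT, which glycosylates anthocyanin, had 1842, 1311 and 1541 in salt and 166, 142 and 104 in mock overexpressor seedlings, beside 1804, 1095 and 1381 in salt and 514, 522 and 796 in mock wild-type seedlings.

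A signal also stood out in the control probe sets, which no comparison used. The 5S rRNA control was 2.36-fold higher in salt than in mock overexpressor seedlings, with 68.9, 74.5 and 72.4 in salt and 28.5, 33.5 and 29.2 in mock seedlings. In the wild-type it was 43.6, 30.3 and 51.3 in salt and 37.4, 32.4 and 21.1 in mock seedlings, which overlap. The 25S rRNA control was 8109, 8864 and 10323 in salt and 15012, 11422 and 12456 in mock overexpressor seedlings.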

How the results depend on the processing

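The counts of 1111 higher and 1218 lower probe sets stayed within 1.5 times of themselves under the scalings, the floor, no trend, array weights and the overexpressor arrays alone, and ranged from 991 to 1149 and from 1092 to 1272 when single arrays were left out. Which count was the larger depended on the scaling. Quantile normalization gave 1168 higher and 1077 lower, and median centring gave 1277 higher and 1001 lower. The filter above the 40th percentile, which tests fewer probe sets, left 795 lower. The methods' t-test after Benjamini-Hochberg adjustment gave 366 higher and 365 lower, and at unadjusted p under 0.01 it gave 856 and 909. An adjusted p under 0.01 with a fold above 2 gave 1745 and 2488, and an adjusted p under 0.05 with no fold limit 3888 and 5463.

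The interaction counts (56 more positive, 12 more negative) were far less stable. They became 145 and 25 with median centring, 109 and 42 with the filter, 1 and 2 without the intensity trend and 710 and 572 with array weights, and the negative count was 22 after quantile normalization; the cause was not tested. Leaving out single arrays gave 4 to 466 and 1 to 294. All 15 named interactions lost their call under at least 1 alternative, GSTF12 and PS2 only without the trend (adjusted p = 0.092 each) and RALFL27 only with the floor (adjusted p = 0.076).

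Same-numbered replicates did not deviate together (correlations from -0.07 to 0.09), so the numbers do not pair the samples. With the replicate number as a block, 1100 probe sets were higher and 1210 lower, and the interaction counts were 17 and 1.

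Of 426 named, listed or family genes, 34 lost their call under at least 1 alternative and 0 reversed. Beside those named in the report, SAG29 (adjusted p up to 0.14) and WSD1 (up to 0.081) were among them. The counts of list members that rose (98) and fell (54) ranged from 93 to 98 and from 50 to 55.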
